A study of Mus musculus with 4 samples.

Results

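The genes described are 10 transcription factors linked to the regrowth of cut axons, Atf3, Jun, Sox11, Stat3, Klf4, Klf6, Klf7, Klf9, Cebpb and Cebpd. They were taken by symbol, and each has 1 row in both deposited tables, which list 21883 features. The mice were wild-type males of strain BL6/C57, labelled young adult, and all of them had the sciatic and femoral nerves of the left side cut 7 days before the RNA was taken. There are 4 groups of 1 library each, namely dorsal root ganglia (DRG) of lumbar levels 4 to 6 and lumbar dorsal spinal cord, each on the cut (ipsilateral) and the opposite (contralateral) side. The reference side therefore came from operated mice, and the labels do not say how many mice a library holds. Since each group is a single library, the spread between animals is unknown and no test between groups was made.

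A sensory neuron of the DRG sends one axon branch into the nerve and another into the spinal cord, and cutting the nerve branch starts a transcription programme in the cell body. Kinases of the JNK cascade, carried back from the cut, phosphorylate c-Jun, the product of Jun, which pairs with ATF3 on DNA. Cytokines that act through the receptor subunit gp130 activate STAT3 by phosphorylation, and Sox11 and several Kruppel-like factors set how far an axon regrows. Klf6 and Klf7 are known as promoters of axon growth and Klf4 and Klf9 as brakes on it. Cebpb and Cebpd encode factors of injury and inflammation that glia and macrophages also make.

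In ipsilateral DRG, Atf3, Sox11, Klf6 and Jun were at least 2-fold higher than on the opposite side, 4 of the 10 genes, and none of the 10 was 2-fold lower. Among all 13137 features at 1 FPKM or more in either DRG library, 3.04% were that much higher and 0.784% that much lower. FPKM stands for fragments per kilobase of transcript, scaled to sequencing depth, so levels are per length. The log2 ratio used here is that of ipsilateral over contralateral FPKM after adding 1 to both, and 2-fold means that it reached 1 or, for lower genes, -1. All 10 genes had a log2 ratio above 0 in DRG, where 56.1% of the measured features did, with a range of 0.12 to 4.85 and a median of 0.71 beside 0.05 over all measured features. In dorsal cord only Atf3 of the 10 was at least 2-fold higher, where 4.46% of 13351 measured features were. There 5 of the 10 lay above 0, as 51.6% of the measured features did, and 5 below, with a median of -0.01 beside 0.02 over all measured features. All 10 genes passed the level of 1 FPKM in both tissues. In such bulk libraries fewer cells of a type and less RNA per cell cannot be told apart, and markers of macrophages and fibroblasts, given further on, were higher in the ipsilateral DRG library too.

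**Figure D1:**
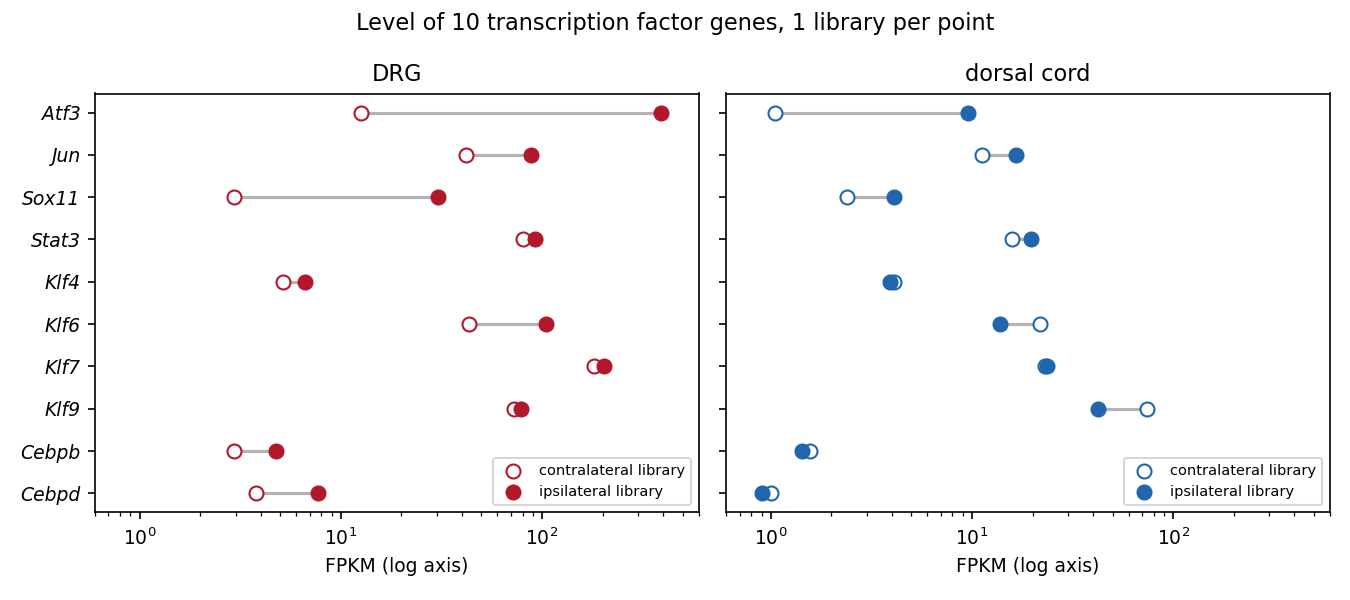
FPKM (log axis) of the 10 genes in each of the 4 libraries, DRG on the left and dorsal cord on the right, with open points for the contralateral and filled points for the ipsilateral library. The widest gaps are those of Atf3 and Sox11 in DRG and of Atf3 in dorsal cord, while Klf9 and Klf6 lie lower ipsilaterally in cord.

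The promoter windows below are those of the 4 genes 2-fold higher in DRG and of Klf9, which was lower in cord. They are shown because AP-1, ATF, C/EBP and STAT factors bind elements of known sequence, and they run 5′ to 3′ on the gene's own strand from 250 bases before the start of transcription to 50 after it. They come from RefSeq on build GRCm38.p6, which is not the build of the expression tables (mm9). Of the 10 genes, 9 were matched to a window. The windows lie at chr1:191183284-191183583 (minus strand, Atf3), chr4:95052173-95052472 (minus strand, Jun), chr12:27342669-27342968 (minus strand, Sox11), chr13:5861239-5861538 (plus strand, Klf6) and chr19:23140976-23141275 (plus strand, Klf9). Capitals mark matches to the patterns searched for AP-1, ATF/CRE, C/EBP-ATF, STAT and Jun-type elements, on both strands.
Atf3: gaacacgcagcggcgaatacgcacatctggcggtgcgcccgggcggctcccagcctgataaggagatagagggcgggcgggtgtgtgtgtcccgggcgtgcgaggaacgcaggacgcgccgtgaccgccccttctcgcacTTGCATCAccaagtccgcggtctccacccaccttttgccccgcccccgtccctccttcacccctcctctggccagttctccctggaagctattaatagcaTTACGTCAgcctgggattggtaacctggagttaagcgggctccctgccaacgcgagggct
Jun: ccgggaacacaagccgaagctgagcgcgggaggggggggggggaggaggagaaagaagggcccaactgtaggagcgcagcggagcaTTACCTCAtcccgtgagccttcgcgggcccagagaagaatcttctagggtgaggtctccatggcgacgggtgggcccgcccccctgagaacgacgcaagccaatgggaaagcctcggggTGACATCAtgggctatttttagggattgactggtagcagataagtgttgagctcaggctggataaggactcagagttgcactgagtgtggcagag
Sox11: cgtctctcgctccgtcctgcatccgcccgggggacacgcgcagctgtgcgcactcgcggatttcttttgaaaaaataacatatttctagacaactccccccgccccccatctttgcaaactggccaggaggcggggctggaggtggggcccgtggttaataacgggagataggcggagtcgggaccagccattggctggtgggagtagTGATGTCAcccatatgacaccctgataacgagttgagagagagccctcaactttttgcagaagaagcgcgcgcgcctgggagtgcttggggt
Klf6: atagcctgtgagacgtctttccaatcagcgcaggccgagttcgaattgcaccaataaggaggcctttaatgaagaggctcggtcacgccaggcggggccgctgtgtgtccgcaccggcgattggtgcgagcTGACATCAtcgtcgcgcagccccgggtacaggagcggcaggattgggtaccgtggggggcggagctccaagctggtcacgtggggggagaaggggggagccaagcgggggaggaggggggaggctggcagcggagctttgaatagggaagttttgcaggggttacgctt
Klf9: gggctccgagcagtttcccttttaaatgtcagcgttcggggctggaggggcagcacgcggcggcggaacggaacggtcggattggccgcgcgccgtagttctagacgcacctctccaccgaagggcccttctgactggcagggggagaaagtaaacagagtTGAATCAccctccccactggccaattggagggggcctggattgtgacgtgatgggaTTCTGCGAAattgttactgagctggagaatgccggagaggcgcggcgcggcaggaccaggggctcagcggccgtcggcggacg

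The Atf3 window holds TTACGTCA, a variant ATF/CRE element, starting 10 bases before the transcription start (position -10), and at -110 the reverse complement of TGATGCAA, the element shared by C/EBP and ATF4. Of all 32851 windows, 0.499% hold the first of these elements and 0.895% the second. Jun, Sox11 and Klf6 each hold the octamer TGACATCA, the AP-1-like element known from the Jun promoter. It reads forward on the gene's own strand at -45 in Jun and at -119 in Klf6, and as its reverse complement at -42 in Sox11. This octamer is in 3.62% of all windows and in 3 of the 9 matched windows, and it was added to the search after the sequences had been seen. The Jun window also holds TTACCTCA, its distal Jun element, at -164 (0.889% of windows), likewise added afterwards. Klf9 holds TGAATCA at -89, a match to the pattern TGANTCA searched for AP-1 (7.81% of windows). The middle base of that pattern was left free, so the match need not be an AP-1 element. At -33 Klf9 holds a STAT element (TTCNNNGAA, 8.30% of windows). The GC box GGGCGG, which KLF and Sp factors can bind, is in 8 of the 9 windows and in 35.7% of all windows. The 9 windows are richer in G and C, with 58.3% to 80.7% of their bases, than the median of 52.7% over all windows, and the part of base composition in this count was not tested. The remaining motifs were the cAMP response element TGACGTCA (1.79% of windows), the C/EBP palindrome TTGCGCAA (0.183%) and the SOX element AACAAAG (5.85%), with no match in the 9 windows, and CACACCC (7.95%), matched in Atf3. A match is a stretch of letters and not evidence of binding.

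Atf3 encodes a stress-induced factor that is widely used as a marker of cut sensory neurons. Its level in DRG was 12.6 FPKM contralaterally and 389 ipsilaterally, a log2 ratio of 4.85. The ipsilateral library was far above the other, and Atf3 moved from the sixth place in level among the 10 genes to the highest. Its log2 ratio was rank 16 among the 13137 measured features and rank 1 among the 74 measured factors of the AP-1, ATF and CREB, KLF, SOX, C/EBP and STAT families and a further list of regeneration factors. The authors' deposited table lists q as 0 for Atf3, and the standard error implied by that table gives a 95% interval of 20.7 to 46.3 around the 31.0-fold difference. Such intervals leave out variation between animals. In mm9, the locus of Atf3 is chromosome 1, 192994176 to 193007212.

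Jun was at 41.8 FPKM contralaterally and 88.5 ipsilaterally in DRG, a log2 ratio of 1.06. The plain fold was 2.12, with an interval of 1.49 to 3.01 and q = 0.00135 in the authors' deposited table. After each library was divided by its median FPKM the log2 ratio of Jun was 0.99, just under 2-fold. The gene is on mm9 chromosome 4, 94715727 to 94718913. Jun is among the 4 of the 10 genes whose longest coding transcript in GENCODE M21 (GRCm38) has 1 exon, with Sox11, Cebpb and Cebpd, while 3.70% of the measured DRG features with an annotation do.

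Other bZIP factors of the AP-1, ATF and CREB families were read beside Atf3 and Jun in DRG. Besides Atf3 and Jun, 21 were measured, of which 1 passed 2-fold upward and 0 downward. Their median log2 ratio was 0.20. That gene was Fosl2, a FOS family partner of c-Jun, at 3.61 FPKM contralaterally and 8.49 ipsilaterally (log2 ratio 1.04), with q = 0.00135 in the authors' deposited table. Fos itself was at 2.87 against 5.94 FPKM (0.84) and is not called there. Atf4, the factor of the integrated stress response, was at 82.2 FPKM contralaterally and 146 ipsilaterally (0.82), and its relative Atf5 at 16.7 and 29.2 FPKM (0.77). The authors' deposited table calls both Atf4 and Atf5 higher. Junb and Jund, the closest relatives of Jun, had log2 ratios of 0.14 and 0.15.

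Sox11, a factor of developing neurons that adult sensory neurons re-express after injury, was at 2.93 FPKM contralaterally and 30.4 ipsilaterally in DRG. This was a log2 ratio of 2.998, rank 36 among the measured features and rank 2 among the 74 factors. Contralaterally Sox11 had the lowest level of the 10 genes, and ipsilaterally it was in the seventh place. The fold was 10.4, with an interval of 7.04 to 15.3 and q listed as 0 in the authors' deposited table. Its locus is mm9 chromosome 12, 28019133 to 28027583. The family members closest to Sox11, Sox4 and Sox12, lay at log2 ratios of -0.15 and -0.16. Of the 10 other measured SOX genes, 2 were at least 2-fold higher, both called in the authors' deposited table. These were Sox9, a glial and cartilage factor, at 0.852 FPKM contralaterally and 3.51 ipsilaterally (1.29), and Sox7, a vascular factor, at 0.324 and 1.94 FPKM (1.15).

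Of the Kruppel-like factors, Klf6 differed in DRG and Klf4, Klf7 and Klf9 did not reach 2-fold. Klf6 was at 43.4 FPKM contralaterally and 105 ipsilaterally, a log2 ratio of 1.26 and rank 6 among the 74 factors. The fold was 2.42, between 1.70 and 3.45, with q = 8.37e-05 in the authors' deposited table. Its locus is mm9 chromosome 13, 5860735 to 5869639. Klf7 had the highest contralateral level of the 10 genes, 181 FPKM, and stood at 203 FPKM ipsilaterally (0.16). The authors' deposited table gives the Klf7 fold an interval of 0.79 to 1.59. Klf9 was at 72.1 and 78.3 FPKM (0.12), and the authors' deposited table puts its fold between 0.765 and 1.54. Klf4 was low, at 5.13 FPKM contralaterally and 6.63 ipsilaterally (0.31), and the authors' deposited table puts its fold between 0.833 and 2.002. Of the growth promoters Klf6 but not Klf7 passed 2-fold, and neither growth brake had the lower value ipsilaterally. The 10 other measured KLF genes had a median of 0.29, with 0 past 2-fold in either direction and Klf11 the farthest at 0.57.

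Cebpb and Cebpd were low in both DRG libraries, and both had the higher value ipsilaterally. Cebpd was at 3.78 FPKM contralaterally and 7.72 ipsilaterally (log2 ratio 0.87). The plain fold of Cebpd was 2.04, with an interval of 1.25 to 3.32 and q = 0.0599 in the authors' deposited table, which does not call it. Without a pseudocount Cebpd had a log2 ratio of 1.03 and would bring the 2-fold genes to 5. Cebpb was at 2.93 and 4.76 FPKM (0.55), with an interval of 0.897 to 2.94 and q = 0.464 in the authors' deposited table. Among the other C/EBP genes, Cebpa was at 0.846 and 2.24 FPKM (0.81) and Ddit3, which encodes the stress factor CHOP, at 36.0 and 52.2 (0.53), neither called in the authors' deposited table.

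Stat3, whose product is switched on by phosphorylation, was at 80.1 FPKM contralaterally and 91.7 ipsilaterally in DRG, a log2 ratio of 0.19. Its fold of 1.15 had an interval of 0.90 to 1.46 and q = 0.706 in the authors' deposited table. Stat3 had the second highest contralateral level of the 10 genes. Its relatives Stat5a at 1.88 and 3.74 FPKM (0.72) and Stat5b at 8.27 and 13.2 (0.61) are not called in the authors' deposited table.

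**Figure D2:**
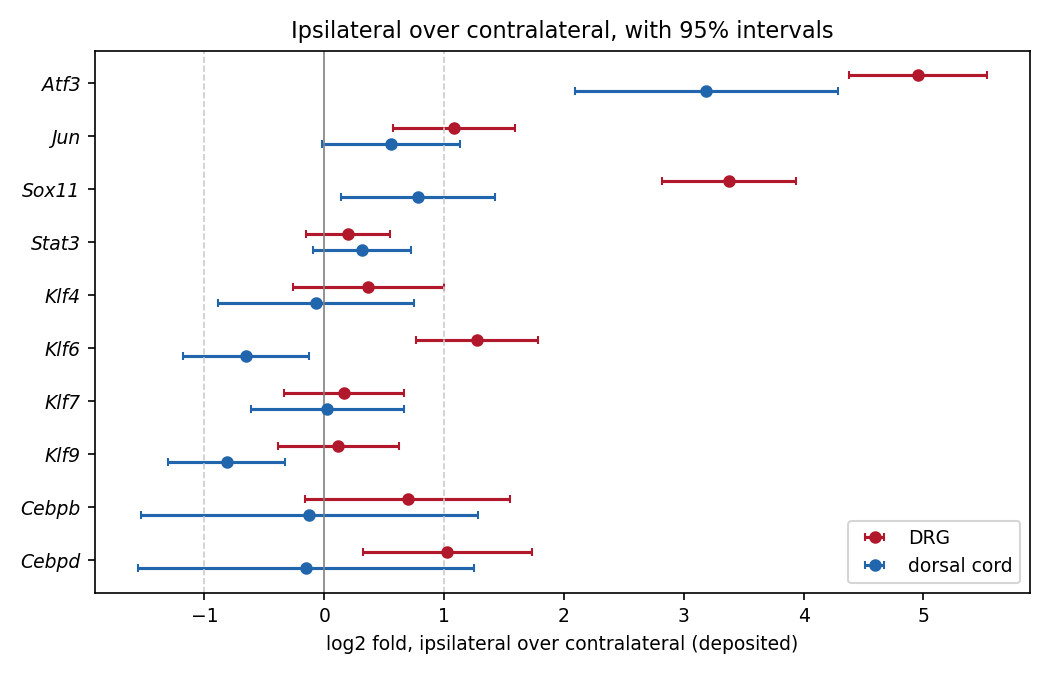
Log2 fold of ipsilateral over contralateral FPKM for the 10 genes in DRG (red) and dorsal cord (blue) as deposited, without a pseudocount; bars are 95% intervals from the standard errors implied by the authors' deposited tables, and dashed lines mark 2-fold. Atf3 and Sox11 in DRG and Atf3 in cord lie past 2-fold with their whole interval, and the cord intervals of Klf6 and Klf9 lie below 0.

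In dorsal cord, the levels of all 10 genes except Klf9 were lower than in DRG on the contralateral side, although levels across the separately normalised tables are only approximate. Klf9 was at 74.5 FPKM in contralateral cord and 72.1 in contralateral DRG, and it was the highest of the 10 in both cord libraries. Atf3 was at 1.05 FPKM contralaterally and 9.59 ipsilaterally in cord, a log2 ratio of 2.37 and rank 56 among the measured features. The fold was 9.11, between 4.26 and 19.5, with q = 4.54e-06 in the authors' deposited table. Atf3 was the 1 gene of the 10 called higher there, where 4.52% of the 14279 features with a completed test were, and Klf9 the 1 called lower, where 1.55% were. In DRG the authors' deposited table calls 4 of the 10 higher, Atf3, Jun, Sox11 and Klf6, against 4.64% of 13975 features, and 0 lower, against 1.90%.

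Cell type markers were read beside the Atf3 value in cord. Motor neurons, whose axons were cut as well, have their cell bodies in the ventral cord. Of their markers, Chat was at 1.60 FPKM contralaterally and 1.55 ipsilaterally, Slc5a7 at 3.20 and 3.01, and Mnx1 was listed at 0 in both. Chodl was the lowest of the 3 measured ones, at 2.22 and 0.987 FPKM (log2 ratio -0.69), and is not called in the authors' deposited table. All 3 lay below 0, with a median of -0.07, and the 6 listed motor neuron markers summed to 7.998 and 6.30 FPKM. Of the markers of DRG neurons, Avil and Scn10a were near 0 in both cord libraries, with Avil listed at 0 contralaterally and at 0.0773 FPKM ipsilaterally and Scn10a at 0 and 0.0975. Prph, found in sensory and motor neurons, was at 3.14 and 7.997 FPKM, and Calca at 0.565 and 2.91, neither called in the authors' deposited table. Prph and Calca were the 2 of 8 measured sensory neuron markers past 2-fold in cord. Of these 8, 5 lay above 0 and 3 below, with a median of 0.09, and the lowest was Ntrk3 at 28.3 FPKM contralaterally and 18.8 ipsilaterally (-0.56). The 14 listed markers summed to 305 and 339 FPKM, with 4 listed at 0 contralaterally and 1 ipsilaterally. With Avil and Scn10a near 0, this sum is no measure of DRG neuron RNA in cord, and its source was not tested. Markers of macrophages and microglia summed to 83.9 FPKM contralaterally and 416.5 ipsilaterally, with 10 of 11 measured genes at least 2-fold higher. The part of these cells in the Atf3 value was not tested.

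Klf9 and Klf6 were lower in ipsilateral cord. Klf9 was at 74.5 FPKM contralaterally and 42.3 ipsilaterally, a log2 ratio of -0.80. The 1.76-fold lower level of Klf9 had an interval of 1.25 to 2.47 and q = 0.0269 in the authors' deposited table. Klf6 was at 21.7 and 13.8 FPKM (-0.62), 1.57-fold lower with an interval of 1.09 to 2.26, and its q of 0.123 was not called in the authors' deposited table. In rank, Klf9 was number 75 and Klf6 number 73 of the 76 measured factors from the highest. The other 9 measured KLF genes had a median of -0.03 in cord, with Klf5 highest at 0.78 and Klf11 lowest at -0.61. Log2 ratios in cord moved with base composition over all features, from a median of -0.28 in the lowest of 20 classes of transcript GC content to 0.24 in the highest. After the median of each class was subtracted, Klf9 was at -0.78 and Klf6 at -0.44.

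The other 7 genes were not called in cord in the authors' deposited table. Sox11 was at 2.38 FPKM contralaterally and 4.10 ipsilaterally (0.59), with a fold between 1.10 and 2.69 and q = 0.134 in the authors' deposited table. Jun was at 11.2 and 16.5 FPKM (0.52), with an interval of 0.989 to 2.19 in the authors' deposited table. Stat3 was at 15.8 and 19.7 FPKM (0.30), and Klf7 at 23.1 and 23.5 (0.03, and -0.03 after median scaling). Klf4 was at 4.11 and 3.93 FPKM (-0.05). Cebpb at 1.56 and 1.43 FPKM and Cebpd at 1.01 and 0.904 (-0.08 each) lay near the measuring limit, and the authors' deposited table puts their folds between 0.346 and 2.43 and between 0.340 and 2.37. A 2-fold difference of Cebpb or Cebpd in either direction could not be detected in cord at this depth. Of 66 other measured factors in cord, 2 were at least 2-fold higher. These were Creb3l2, a factor of the secretory pathway, at 3.58 and 9.46 FPKM (1.19), which the authors' deposited table calls, and Maff, a small partner of bZIP factors, at 1.45 and 3.94 (1.01), which it does not. Mafg, a relative of Maff, was at 47.7 and 23.5 FPKM (-0.99) and is called lower in the authors' deposited table.

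**Figure D3:**
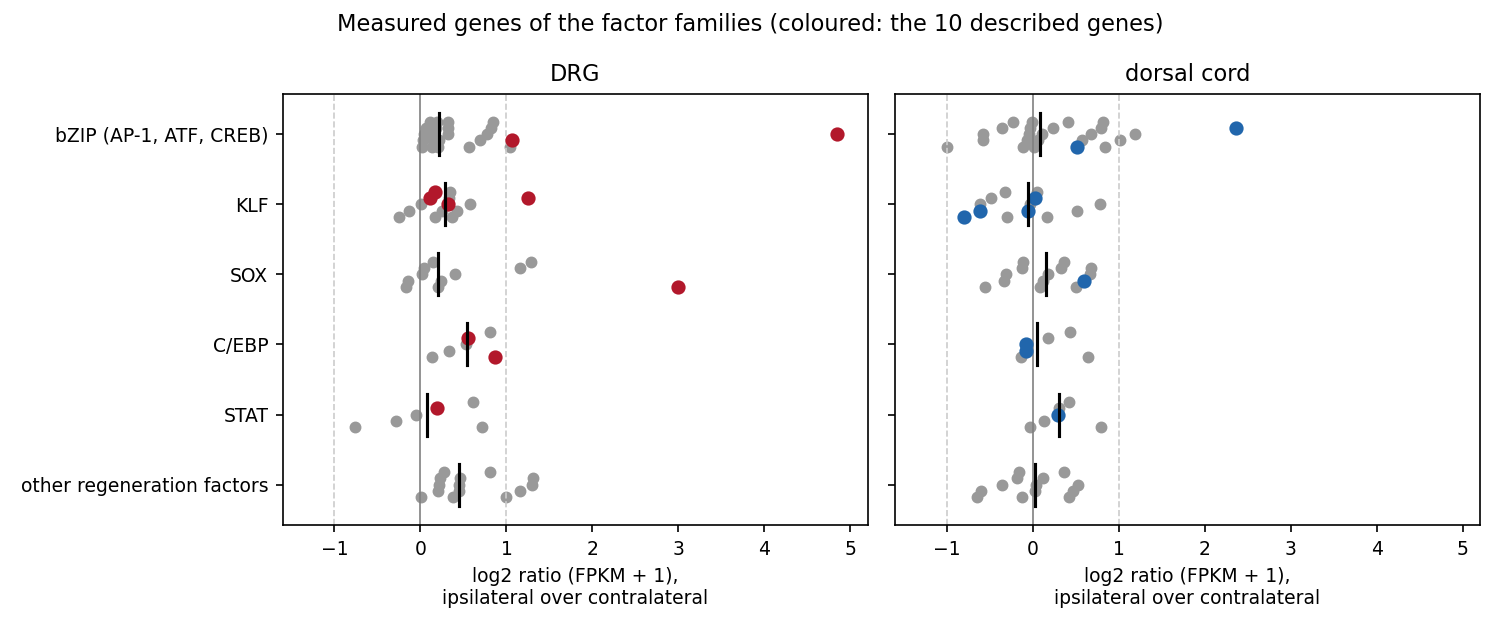
Log2 ratio (pseudocount of 1 FPKM, ipsilateral over contralateral) of every measured gene of the factor families, DRG left and dorsal cord right; coloured points are the 10 described genes, grey points their relatives, and black bars the medians. In DRG, Atf3 at 4.85 and Sox11 at 2.998 lie far to the right of their families, whose medians are 0.22 and 0.21.

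Set side by side, 9 of the 10 genes had the higher log2 ratio in DRG and Stat3 had the higher one in cord. The tables come from different libraries, so the difference of the plain log2 folds was given an interval from both standard errors. That interval left out 0 for Atf3, Sox11, Klf6 and Klf9. The difference, DRG minus cord, was 1.77 for Atf3 (0.53 to 3.01), 2.59 for Sox11 (1.74 to 3.45), 1.93 for Klf6 (1.20 to 2.66) and 0.93 for Klf9 (0.23 to 1.64). For Jun it was 0.53, with an interval of -0.24 to 1.29 that holds 0. The Stat3 difference was -0.12, with an interval of -0.66 to 0.42. These intervals hold for the 4 libraries and not for the tissues of other animals.

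Genes that act on STAT3 and c-Jun were read next. Of the gp130 ligand genes, Il6, Lif, Osm and Il11 stayed under 1 FPKM in both DRG libraries. Cntf, a cytokine gene of Schwann cells, was at 32.3 FPKM contralaterally and 43.0 ipsilaterally (0.40). The receptor and Janus kinase genes had 0 of 9 past 2-fold and a median of 0.22. Il6st, which encodes gp130, was at 117 and 147 FPKM (0.32), Il6ra at 1.73 and 3.03 (0.56) and Jak2 at 8.32 and 11.4 (0.41). Among the inhibitors, 0 of 7 passed 2-fold. Socs3, which STAT3 induces and which blocks gp130 signalling, was at 2.54 and 4.41 FPKM (0.61), not called in the authors' deposited table, and Socs2 at 9.95 and 19.4 (0.90), called with q = 0.0186 there.

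Of 11 measured kinases and scaffolds of the JNK cascade, 10 lay below 0 and 1 above in DRG, where 56.1% of all measured features lay above 0. Their median was -0.15, with 0 past 2-fold and 0 called in the authors' deposited table. Sensory neuron markers moved the same way, with 13 of 14 below 0 and a median of -0.48, and their part in the JNK cascade values was not tested. Map3k12, which encodes the axon injury kinase DLK, was at 14.3 FPKM contralaterally and 12.9 ipsilaterally (-0.15). Mapk10, the neuronal JNK gene, was at 64.6 and 44.7 FPKM (-0.52), and Mapk8, the 1 gene above 0, at 11.9 and 14.3 (0.25). The MAP kinase phosphatases, which switch such kinases off, had a median of 0.07 over 7 genes, with Dusp1 highest at 0.60. These are RNA levels and say nothing of phosphorylation.

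In cord, Il6ra was at 1.05 FPKM contralaterally and 4.16 ipsilaterally (1.33), called in the authors' deposited table with q = 0.00432. Ptpn6, which encodes a phosphatase of blood and myeloid cells, was at 3.48 and 11.2 FPKM (1.44) and is called higher in the authors' deposited table as well. Socs3 was at 0.338 and 1.52 FPKM (0.91), with q = 0.0598 in the authors' deposited table. The 11 JNK cascade genes had a median of -0.08 in cord. The authors' deposited table calls the JNK scaffold genes Mapk8ip1, at 56.2 and 83.1 FPKM (0.56), and Mapk8ip3, at 88.2 and 114 (0.37), higher. As 10 of 11 macrophage and microglia markers were 2-fold higher in the same library, the part of those cells in the Il6ra and Ptpn6 values was not tested.

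Other factors linked to axon regeneration also lay above 0 in DRG, in a list drawn up with earlier results of these data known. All 14 measured genes of this list were above 0, where 56.1% of all measured features were, with a median of 0.44. At least 2-fold higher were 3 of them, against 3.04% of all measured features. The authors' deposited table calls 5 of the genes higher, against 4.64% of the features with a completed test. Because of how the list was chosen, these counts do not stand as support for the 10 genes. Nfil3, a bZIP repressor, was at 3.37 FPKM contralaterally and 9.84 ipsilaterally (1.31). Csrnp1, an immediate early gene, was at 0.824 and 3.48 FPKM (1.298), and Smad1, a transducer of BMP signals, at 14.9 and 34.4 (1.15). Egr1 was just under 2-fold at 5.53 and 12.1 FPKM (0.998). In cord the same list had a median of 0.03 over 13 genes, with 0 past 2-fold and Trp53 lowest at -0.65. Across all the lists of factors, 6 of the 64 measured DRG genes besides the 10 were at least 2-fold higher, against 3.04% of all measured features.

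The list of effector genes holds genes linked to axon regrowth that are not transcription factors. Besides genes of the growing axon it has neuropeptide, cytokine and stress genes. This list, too, was drawn up with earlier results of these data known, so its counts are a description only. In DRG, 15 of 25 measured effector genes passed 2-fold upward and 0 downward, and their median was 1.66. Of all measured DRG features, 3.04% were 2-fold higher and 0.784% 2-fold lower. Sprr1a, which codes for a small protein of growing axons, was at 6.25 FPKM contralaterally and 782 ipsilaterally. Next in DRG were the neuropeptide genes Npy (log2 ratio 5.69), Gal (4.62) and Nts (4.47). Gadd45a, a DNA damage and stress gene, was at 21.9 and 139 FPKM (2.61), and Flrt3, an adhesion gene, at 5.71 and 55.7 (3.08). In cord, where 4.46% of all measured features were at least 2-fold higher, 4 of 26 effector genes were. One of them was Plaur, the urokinase receptor gene, listed at 0 contralaterally and at 1.38 FPKM ipsilaterally. The list of glucocorticoid response genes, which holds Klf9 and Cebpd, holds 14 genes and had medians of 0.44 (DRG) and 0.17 (cord). Its only gene past 2-fold was Cdkn1a, a cell cycle inhibitor, at 31.4 and 146 FPKM (2.18) in DRG.

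**Figure D4:**
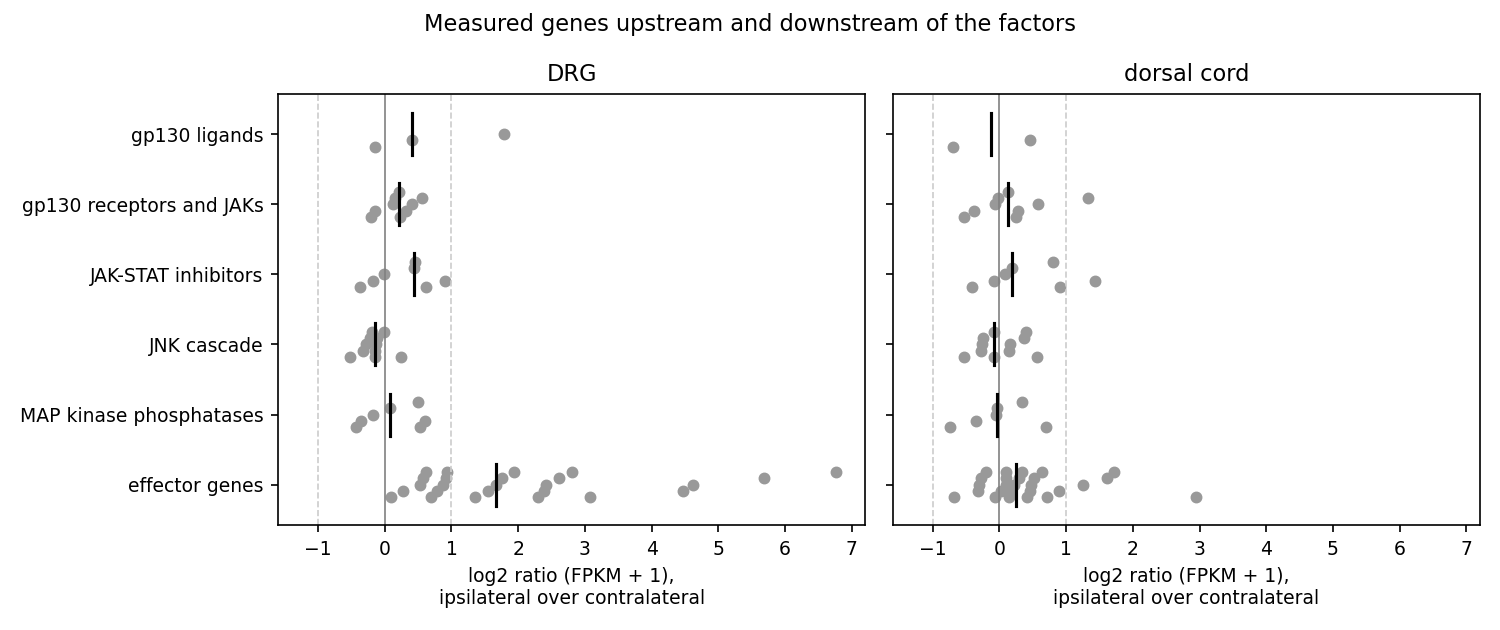
Log2 ratio (pseudocount of 1 FPKM, ipsilateral over contralateral) of the measured genes of the gp130, JAK-STAT, JNK cascade, MAP kinase phosphatase and effector lists. DRG is on the left and dorsal cord on the right, with 1 point per gene, black bars for medians and dashed lines at 2-fold. Whether the effector genes are targets of the factors was not tested. In DRG the JNK cascade sits just left of 0 with a median of -0.15, while the effector genes reach 6.76.

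For each of the 4 genes past 2-fold, the 3 genes with the most similar pattern were sought among 13944 genes, by the Euclidean distance of log2(FPKM + 1), centred per gene, over the 4 libraries. Nearest to Atf3 was Sprr1a, at a distance of 1.58 and with log2 ratios of 6.76 in DRG and 2.94 in cord, followed by Gpr151 (1.998) and Fst (2.27). Gpr151 and Fst had log2 ratios of -0.01 and 0.07 in cord, under 1 FPKM there, so they did not share the cord value of Atf3. The 3 nearest genes of Jun lay within 0.20 and were Igf2, Col6a2 and the pseudogene Tubb2a-ps2. Sox11 had Slc6a4 at 0.26, Gadd45a at 0.46 and Lipn at 0.49, with Lipn listed at 0 in every library but ipsilateral DRG. For Klf6 they were Ms4a6c (0.05), Emp1 (0.22) and Socs2 (0.30). Each of these was higher in DRG and lower in cord, which follows from how they were chosen. Ms4a6c was under 1 FPKM in both cord libraries, at 0.741 contralaterally and 0.091 ipsilaterally. Likeness over 4 libraries is a description of these libraries.

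Markers of other cell types also differed between the DRG libraries. Marker genes of macrophages and microglia summed to 150 FPKM contralaterally and 326 ipsilaterally, with 8 of 12 at least 2-fold higher, and those of fibroblasts to 353 and 685, with 2 of 6. Sensory neuron markers summed to 3611 and 2723 FPKM, with 1 of 14 at least 2-fold lower, and Schwann cell markers to 3437 and 3837. Satellite glia markers summed to 1874 and 1957 FPKM and endothelial markers to 29.5 and 33.8. Neutrophil markers were at 225 and 219 FPKM in total, and T cell markers stayed under 1 FPKM each. Astrocyte markers summed to 44.7 and 44.0 FPKM in DRG, with 2 of 7 at least 2-fold lower and 1 higher. The lower ones were Aqp4, at 5.10 and 2.04 FPKM, and Slc1a2 (log2 ratio -1.43), and the higher one Aldh1l1, at 5.22 and 11.5 FPKM. The authors' deposited table also calls the oligodendrocyte marker Mobp lower, although the oligodendrocyte markers summed to 1004 and 1095 FPKM. The part of central nervous tissue in the DRG libraries was not tested. Both tissues held the markers of their label, with Avil at 272 and 270 FPKM in DRG and the dorsal horn gene Slc32a1 at 70.3 and 54.9 in cord. The part of macrophages and fibroblasts in the Klf6, Jun, Cebpb and Cebpd values was not tested. The locus given for Cebpd spans 259548 bases and overlaps 1 other feature, and that of Klf9 overlaps a microRNA, while the other 8 loci overlap none.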

How the data were processed

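Per the labels' protocols, RNA came from a QIAGEN RNeasy column kit, and the sequencing library kit was Epicentre ScriptSeq. TopHat 1.4.0, Cuffdiff 1.3.0 and build mm9 are named per the submitters' processing notes, and annotation and strand setting are not given in the sources used here. Per the file headers, each deposited table gives FPKM, a log2 fold change, a test score, p-values and q-values for 1 tissue. The cord fold was turned so that ipsilateral is over contralateral. The authors' p-values compare 1 library with 1 library. The standard error is the deposited log2 fold divided by the deposited test score. Read counts are not given in the sources used here, but the features whose standard error is that of 1 read in each library show that 1 read was worth 0.637 times as much FPKM in ipsilateral as in contralateral DRG, and 1.35 times as much in cord.

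Ratios, medians and counts were computed with Python 3.11.15, numpy 2.4.6 and pandas 2.3.3, and the script was tested on simulated data. Locus starts are 1 above the deposited ones, which count from 0. Columns of other samples were 0 in number. No p-value was computed. The 10 genes and all lists were chosen with earlier results of these data known. Named are the 10 genes, members of each list with the largest absolute log2 ratio (up to 4), the 3 genes with the nearest pattern, and others chosen after their values were seen. Transcript GC content came from GENCODE M21. Some genes of the lists are not reported here.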

Additional observations from a re-analysis of the deposited data

Results flagged for a closer look

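The log2 ratios of 5 of the 10 genes had opposite signs in the tissues, above 0 in DRG and below 0 in cord. With 1 library per group the difference was not tested over samples. The DRG ratio exceeded the cord ratio by 1.87 for Klf6, 0.92 for Klf9, 0.94 for Cebpd, 0.63 for Cebpb and 0.37 for Klf4. For Cebpd, Cebpb and Klf4 the interval of the plain difference from the authors' deposited tables held 0.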

How the results depend on the processing

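The alternatives were pseudocounts of 0.1 and 3 FPKM and none, median and upper-quartile scaling, subtraction of GC class medians, other filters, a 1.5-fold threshold and the authors' call; the plain ratio and the GC correction were chosen after seeing the data. Over 120 values of single genes under another setting, all 120 moved by less than one side of the gene's interval from the authors' deposited table, and Klf7 in cord turned to -0.03 under median scaling. The number of the 10 genes 2-fold higher in DRG ranged from 3 (median scaling) to 5. In cord, 2 were higher and 2 lower at the 1.5-fold threshold, and the authors' deposited table calls 1 lower. The median of the 10 genes ranged from 0.52 to 0.86 in DRG and from -0.06 to 0.00 in cord. The features 2-fold higher and lower numbered 400 and 103 in DRG and 595 and 219 in cord. They were 679 and 259, and 964 and 481, at a pseudocount of 0.1 FPKM, and 204 and 44, and 264 and 81, at 3 FPKM. Without a pseudocount they were 722 and 286, and 1020 and 518. A filter at 5 FPKM left 68 lower in DRG, and 373 higher and 130 lower in cord. No paired analysis was possible because each group has 1 library. Depth limits Cebpb and Cebpd in cord most.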
